A study of Mus musculus with 4 samples.

Results

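The miR-297, miR-466, miR-467 and miR-669 microRNAs of mouse were followed in small RNA from plasma exosome preparations of tumour-bearing mice. The members were every row of the deposited count table whose first miRNA name carries one of these 4 numbers, with any letter, copy or arm, and which was listed in all 4 libraries. They were 34 of 1809 miRNA rows: 1 of miR-297, 11 of miR-466, 7 of miR-467 and 15 of miR-669. A row that joins several miRNA names was counted as 1 member, and 3 members were such joint rows.

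The mice were C57BL/6, either wild type (WT) or gp49B-/- (KO), which lack an inhibitory receptor found on myeloid cells. All of them received LLC cells, a transplantable mouse lung carcinoma line, into a vein, and plasma was taken on day 21. There were 2 libraries per genotype, numbered pool 1 and pool 2 and written WT1, WT2, KO1 and KO2. A WT library combined plasma from 3 samples and a KO library plasma from 4. No library came from mice without a tumour, p-values measure only the spread between pooled libraries, and the deleted gene encodes a protein, so small RNA gives no check of the genotype labels. Values are counts of UMIs (unique molecular identifiers), barcodes joined to each cDNA so that copies made by PCR are counted once.

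Most of these miRNAs are encoded in a large intron of Sfmbt2, a Polycomb-group gene that is expressed from the paternal allele in mouse placenta. The cluster is known from mouse and rat, is built of tandem copies of a few hairpins and is best known for its high level in trophoblast and in some embryonic stem cells. Many of the mature sequences are simple repeats of U and G in the 5p arm (from the 5′ side of the hairpin) or of A and C in the 3p arm. Because copies are identical or nearly so, a read often cannot be assigned to one locus, and counts of near-identical members could have been split between them by the counting.

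The name of the cluster held for 28 of the 34 members. Their deposited positions on GRCm38 lay on chromosome 2, on the plus strand as Sfmbt2 does, between 10466713 and 10518197, a span of 51.5 kb. All 66 of their loci fell in 1 intron (10461473 to 10523944, 62.5 kb), which is number 10 of 22 in one annotated transcript of the gene and number 11 in another. No miRNA row outside the family had a position within Sfmbt2 (0 of 1775).

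The other 6 members came from 5 hairpins elsewhere and belong to the family by name. Both arms of miR-466i lie on chromosome 13 in an intron of Cdk13, miR-466k on chromosome 3 in an intron of Gm37240, miR-669n on chromosome 3 in an intron of Slc30a7 and miR-467f on chromosome 11 in the first intron of Fxr2. Each of these lies on the strand opposite to the gene. The position of miR-466j, on chromosome 10, was in no annotated gene other than its own.

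RefSeq's mature miRNA table (GRCm38.p6) matched 5 of the 34 members, all at loci outside Sfmbt2. They are shown because no other member was matched, and they do not show the sequences of the members in Sfmbt2. Capitals mark the seed, bases 2 to 8 from the 5′ end, which sets most target pairing.
miR-466k (chr3:85467396-85467418, plus strand): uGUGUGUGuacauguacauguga
miR-466j (chr10:60960802-60960824, plus strand): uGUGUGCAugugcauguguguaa
miR-669n (chr3:115979905-115979924, plus strand): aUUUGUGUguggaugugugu
miR-466i-3p (chr13:17747552-17747573, plus strand): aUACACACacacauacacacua
miR-467f (chr11:69635419-69635439, minus strand): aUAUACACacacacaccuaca
The first 3 are 69.6%, 73.9% and 90.0% G or U, and the last 2 are 86.4% and 85.7% A or C. Over the 1564 miRNA rows with a sequence in the table, the middle row was 54.5% G or U and 95% of rows lay between 27.3% and 77.3%. The 6 letters GUGUGU, searched in the mature RNA as written, occurred in the first 3 of these members and in 14 of 1564 rows (0.895%), and ACACAC, which overlaps no GUGUGU, in the last 2 and in 9 rows (0.575%). The 5 seeds were all different, and none of the 1559 other rows with a sequence shared one of them. Members without a matched sequence were not part of this search, so it does not show whether seeds are shared within the family.

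**Figure D1:**
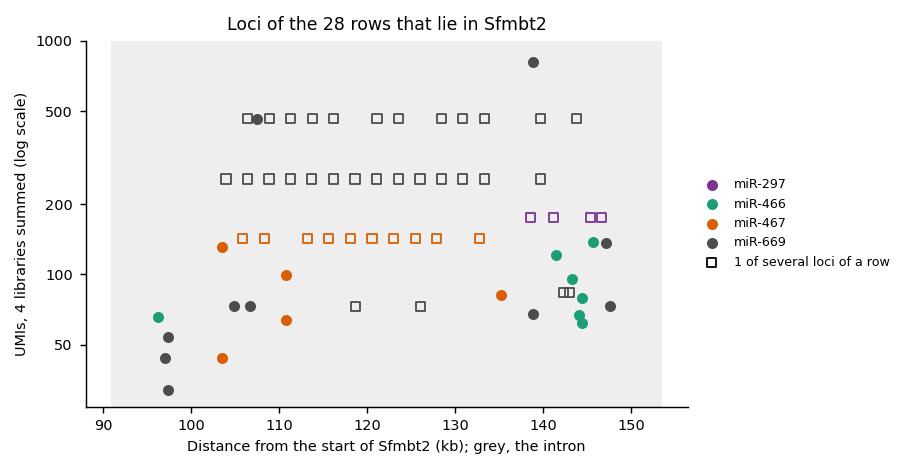
Loci of the 28 members that lie in Sfmbt2, by distance from the start of the gene in kb (x axis) and UMIs summed over the 4 libraries (y axis, log scale). Filled circles are members with 1 locus and open squares are the several loci of a member counted as 1 row, colours give the miRNA number, and grey marks the intron. The row with the most UMIs (810) is miR-669c-5p, with 1 locus.

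The member with the most UMIs had a single locus. There were 6 members with 2 or more loci, of which the joint row miR-669a-5p/miR-669p-5p has 14, miR-669a-3p/miR-669o-3p 12, miR-467a-5p 10 and miR-297a-3p/miR-297b-3p/miR-297c-3p 4. Over the 4 libraries these 6 had 73 to 465 UMIs with a median of 158.5, and the 28 members with 1 locus had 32 to 810 with a median of 73. In the map of loci, the 3 rows of miR-669b and miR-669e, near the start of the cluster, were low, with 32 to 54 UMIs. Of these, miR-669b-5p and miR-669e-5p were listed at 0 in WT1. The first member of the cluster, miR-466m-3p, had 66 UMIs, and miR-467c-3p, 103 kb from the start of the gene, had 44. A trend with position was not tested.

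Total UMIs ranged from 1607218 to 3645842, at 5.29 and 5.70 reads per UMI in WT1 and KO1 and at 1.69 and 2.11 in WT2 and KO2. No count between 1 and 9 occurred in WT1 or KO1, while WT2 went down to 1 and KO2 to 2, so a miRNA listed at 0 in pool 1 is not shown to be absent. Liver markers (miR-122, miR-192 and miR-802) took 7.37% to 27.2% of miRNA UMIs and red blood cell markers (miR-451a, miR-144 and miR-486) 7.94% to 18.4%, both highest in pool 2. Myeloid markers (miR-223 and miR-142a) took 1.14% to 4.64%, platelet and endothelial markers (miR-126a) 0.339% to 0.922% and muscle markers (miR-206, miR-1a and miR-133a) 0.396% to 3.68%, each highest in KO1. All 18 markers were counted above 0 in every library, and their part in the values below was not tested. In pooled plasma, fewer source cells and less RNA per cell cannot be told apart.

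The family was a minor component of the miRNA in these preparations. In WT1 it had 1424 UMIs, which was 0.0903% of miRNA UMIs (exact 95% binomial interval 0.0856 to 0.0951%), and in WT2 870, which was 0.0274% (0.0256 to 0.0293%). In KO1 it had 1385 UMIs, or 0.0810% (0.0768 to 0.0854%), and in KO2 1018, or 0.0280% (0.0263 to 0.0298%). These intervals, and those below, cover counting error only. The share was thus high in both pool 1 libraries and low in both pool 2 libraries, and the genotypes overlapped. As mean ± SD it was 0.0588% ± 0.0444 in WT and 0.0545% ± 0.0375 in KO (n = 2 each), a difference of -0.00432 percentage points with a two-sided exact permutation p of 1.0, where the smallest p of 6 splits is 0.333. Without WT1 the difference was 0.0271 points and without KO2 it was 0.0222, so its sign rested on which libraries were present. In all, 7 shares were compared in this way, and each had a Benjamini-Hochberg adjusted exact permutation p of 1. The lowest unadjusted p was 0.667, for miR-297 and miR-466.

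The middle row of all miRNAs was also higher in pool 1. In CPM (UMIs scaled to a fixed total of miRNA UMIs in each library), the middle member had 16.5 in WT1, 5.36 in WT2, 12.9 in KO1 and 4.96 in KO2. Over all 1809 rows the middle row had 29.8, 9.78, 25.2 and 11.6. Members were low in every library: 27, 29, 26 and 29 of the 34 lay under the middle row of WT1, WT2, KO1 and KO2. By mean share over the libraries they ranked from 186 to 1802 of 1809 with a median rank of 1528.5, and 4 reached 100 UMIs in any library: miR-669c-5p, miR-669j and both joint rows of miR-669a.

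**Figure D2:**
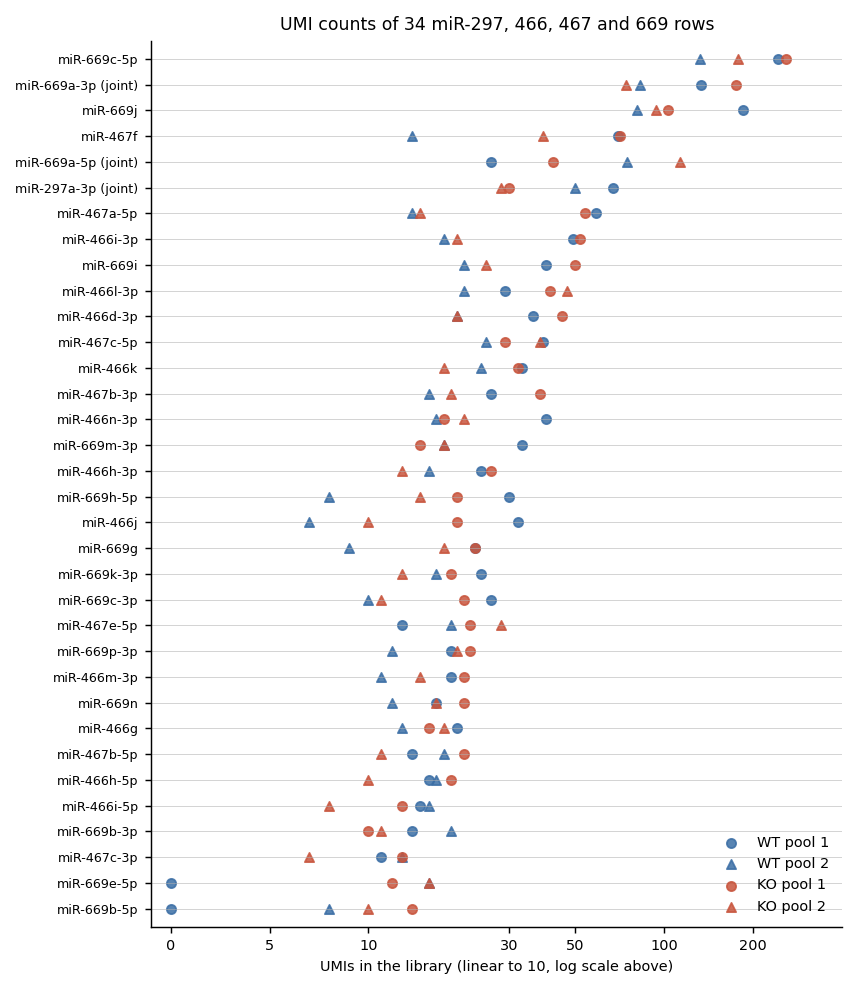
UMI count of each of the 34 members (rows, ordered by mean share of miRNA UMIs) in each library (x axis, linear to 10 and log scale above). Blue marks WT and red KO, circles mark pool 1 and triangles pool 2. For miR-669a-5p/miR-669p-5p, shown as miR-669a-5p (joint), pool 2 lies above pool 1 in both genotypes, and the points at 0 are miR-669b-5p and miR-669e-5p in WT1.

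The miR-669 rows held most of the family's UMIs, 57.0% in WT1, 59.9% in WT2, 58.1% in KO1 and 62.2% in KO2. The miR-466 rows had 313 UMIs in WT1, 180 in WT2, 303 in KO1 and 200 in KO2, and the miR-467 rows 232, 119, 248 and 157. These sums put the 4 numbers in the same order in every library, with miR-669 first and miR-297 last. That is also their order by rows summed (15, 11, 7 and 1). The single miR-297 row had 67 UMIs in WT1, 50 in WT2, 30 in KO1 and 28 in KO2. It lay above the middle member of the family, which had 26, 17, 22 and 18. The most abundant member was miR-669c-5p (chromosome 2, 10509319 to 10509340), with 243 UMIs in WT1, 132 in WT2, 257 in KO1 and 178 in KO2. The 2 pool 1 libraries were the highest, and the genotypes overlapped. The second was miR-669a-3p/miR-669o-3p, with 133 UMIs in WT1, 83 in WT2, 175 in KO1 and 74 in KO2. The third was miR-669j (chromosome 2, 10477989 to 10478010), with 184 in WT1, 81 in WT2, 103 in KO1 and 94 in KO2. Since the second and the third had 465 and 462 UMIs in all, their order is within counting error. Of the remaining 31 members, miR-467f ranked first by mean share, with 70 UMIs in WT1, 14 in WT2, 71 in KO1 and 39 in KO2, and was the most abundant one outside Sfmbt2. That order turned with the measure, since miR-669a-5p/miR-669p-5p had 256 UMIs in all against 194 for miR-467f, and CPM after TMM scaling (trimmed mean of M-values, which sets the bulk of miRNAs equal between libraries) of 25.5 in WT and 30.9 in KO against 16.9 and 21.7.

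Reads per UMI of the members were close to those of the library. The middle member had 5.63 reads per UMI in WT1, 1.69 in WT2, 5.65 in KO1 and 2.20 in KO2. The middle row of all miRNAs had 5.51, 1.71, 5.85 and 2.20. With reads counted in place of UMIs the family's share difference was -0.00491 points. The fewest reads per UMI in pool 1 were those of miR-466i-5p, with 29 reads for 15 UMIs in WT1 and 34 for 13 in KO1.

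Both arms of a hairpin were listed in all libraries for 7 hairpins, and their UMI counts were compared. Strand loading itself was not measured. In most hairpins one strand is loaded into Argonaute and the other is degraded. For miR-669c the 5p arm took 90.3% (exact 95% interval 86.2 to 93.6%) of the UMIs of both arms in WT1, 93.0% (87.4 to 96.6%) in WT2, 92.4% (88.7 to 95.3%) in KO1 and 94.2% (89.8 to 97.1%) in KO2. All 4 intervals overlapped, so a difference in the 5p share of miR-669c between libraries was not apparent at this depth. By rows, the 11 5p members together had 455 UMIs in WT1, 348 in WT2, 503 in KO1 and 442 in KO2, and the 15 3p members 550, 341, 546 and 337. In these sums the 3p rows were ahead in pool 1 and the 5p rows in pool 2, the latter in WT2 by 7 UMIs only. Without the joint miR-669a rows, the 5p rows had 429 UMIs in WT1, 273 in WT2, 461 in KO1 and 329 in KO2, against 417, 258, 371 and 263 for the 3p rows. The turn between pool numbers was thus that of the miR-669a rows. As in miR-669c, the 5p arm held most of the UMIs in miR-467c, at 65.8% to 84.4%. For miR-466h the 5p share was 40.0% to 51.5%, and for miR-467b 35.0% to 52.9%, at 23 to 59 UMIs per library. The interval of miR-467b in KO1 (35.6%, 23.6 to 49.1%) lay below 50%, and those of the other libraries for both hairpins included it. For miR-669b the 5p share was 0% of 14 UMIs in WT1, where the arm is listed at 0, 29.6% in WT2, 58.3% in KO1 and 47.6% in KO2, at 21 to 27 UMIs in the latter 3.

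The arms of miR-669a differed between pool numbers. The 5p arm, counted with miR-669p-5p, had 26 UMIs in WT1, 75 in WT2, 42 in KO1 and 113 in KO2, while the 3p arm, counted with miR-669o-3p, had 133, 83, 175 and 74. The 5p share of both was 16.4% (11.0 to 23.0%) in WT1 and 19.4% (14.3 to 25.2%) in KO1, against 47.5% (39.5 to 55.6%) in WT2 and 60.4% (53.0 to 67.5%) in KO2. Both pool 1 values were low and both pool 2 values high, with separate intervals. Within a pool number the intervals of the genotypes overlapped, in pool 2 only from 53.0% to 55.6%. The genotypes were not tested against each other on this share. The joint rows do not cover the same hairpins. The 5p locus at 10474460 to 10474483 has no partner in the 3p row, and the 3p locus at 10514355 to 10514377 none in the 5p row. Also, miR-669p-3p is a row of its own, and miR-669a-3-3p is one listed for pool 1 only (14 UMIs in WT, 22 in KO). With the UMIs of miR-669p-3p alone added to the 3p side, the 5p shares were 14.6% and 17.6% in pool 1 for WT and KO. In pool 2 they were 44.1% and 54.6%, and the arms were still not fully matched. For miR-466i the 5p share was 23.4% and 20.0% in pool 1 and 47.1% and 28.6% in pool 2, with intervals that overlapped.

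**Figure D3:**
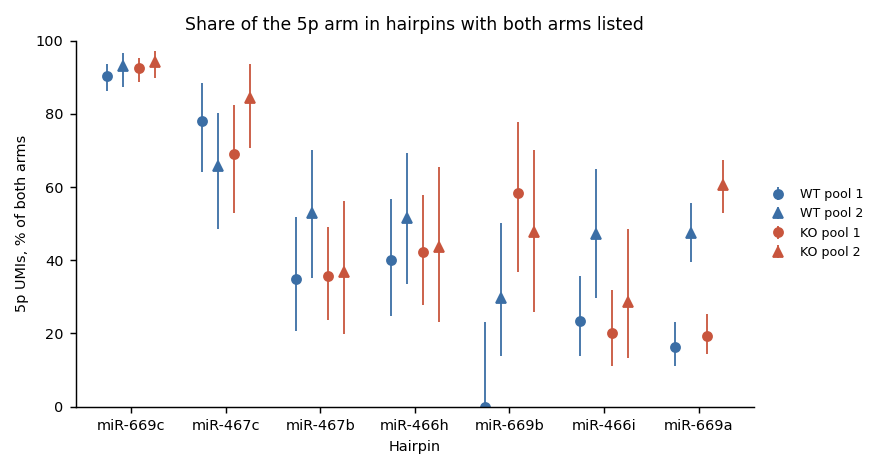
Share of the 5p arm in the UMIs of both arms (y axis, %) for the 7 hairpins with both arms listed (x axis), with exact 95% intervals. Blue marks WT, red KO, circles pool 1 and triangles pool 2. The miR-669c values lie between 90.3% and 94.2%, and those of miR-669a are at 16.4% and 19.4% in pool 1 and at 47.5% and 60.4% in pool 2.

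The miR-669a 5p row was also the member that differed most from the others in its ratio of pool 2 over pool 1. After TMM scaling, WT2 was 4.24 times WT1 (exact 95% interval 2.68 to 6.91) and KO2 was 2.78 times KO1 (1.94 to 4.07). Among 1780 tested rows with counts above 0 in all libraries, 15 had a higher ratio in WT and 50 in KO. The ratio of the middle member was 0.923 in WT (n = 32 members with counts above 0) and 0.728 in KO (n = 34), against 0.967 and 1.01 for all rows tested. Among the members, miR-467a-5p had the lowest ratio in KO, at 0.287, with 0.349 in WT. Its counts were 59 UMIs in WT1, 14 in WT2, 54 in KO1 and 15 in KO2. The lowest ratio in WT was that of miR-467f, at 0.294, with 0.568 in KO. Among other low ratios were those of miR-466j, at 0.322 in WT and 0.517 in KO, and miR-466i-3p, at 0.540 and 0.398. Low in 1 genotype were miR-669h-5p, at 0.392 in WT and 0.776 in KO, and the miR-669a 3p row, at 0.918 in WT and 0.438 in KO. The pool number was not part of the study's comparison, so these values are given without a test.

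**Figure D4:**
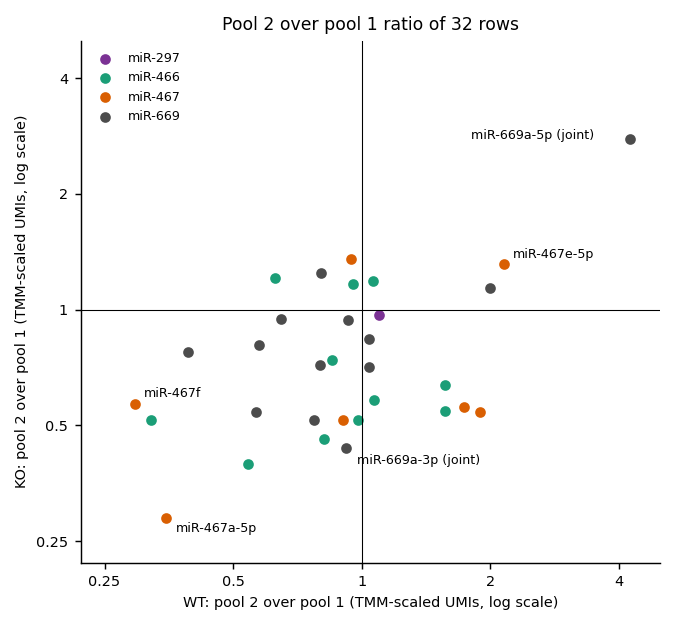
Ratio of pool 2 over pool 1 in TMM-scaled UMIs for 32 members, WT on the x axis and KO on the y axis (both log scale), coloured by miRNA number. Only miR-669a-5p/miR-669p-5p lies above 2.5 in both genotypes.

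The comparison of KO with WT called no member. Of 34 members, 33 passed edgeR's filter on low counts and entered a fit to 1797 miRNAs, and miR-669b-5p did not. At a Benjamini-Hochberg adjusted p under 0.05, edgeR's quasi-likelihood test called 0 of 33 members and 0 of 1797 miRNAs (0%), and DESeq2 also called 0 of each. Unadjusted p-values under 0.05 numbered 32 with edgeR and 28 with DESeq2 over all miRNAs. With edgeR at an unadjusted p under 0.05 there was 1 member lower in KO and 0 higher, where 0.946% of all miRNAs were lower and 0.835% higher at that threshold. Estimates were higher in KO for 14 members (47.4% of all miRNAs) and lower for 19 (52.6%). One of the 14 was miR-669e-5p (log2 fold change 0.49, SE 1.03), which is listed at 0 in WT1. In pool 2 its KO over WT ratio was 0.733. The median log2 fold change of the members was -0.12, with a range of -1.19 to 0.64, and that of all miRNAs tested was -0.026. The members' median was -0.57 without KO1 and 0.17 without KO2. The median standard error of a member's log2 fold change was 0.50, against 0.47 for all miRNAs. In pool 1, 19 members had a KO over WT ratio above 1 (48.9% of all miRNAs), and in pool 2, 11 did (48.1%). Scaled on total UMIs in place of TMM these were 13 (34.2%) and 17 (69%), so the split moved with the scaling.

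The pools pointed in opposite directions for many members, as they did for many of all miRNAs. Of the 32 members with a KO over WT ratio in both pools (TMM-scaled UMIs), 16 were higher in KO in 1 pool and lower in the other. The same held for 861 of all 1780 tested miRNAs with both ratios, so it was not particular to the members. Of the 33 tested, 7 were higher in KO in both pools (24.3% of all miRNAs) and 9 lower in both (26.9%). The median ratio of the members was 1.08 in pool 1 (0.466 to 1.76) and 0.850 in pool 2 (0.366 to 2.04), against 0.994 and 0.989 for all miRNAs. Scaled on total UMIs the members' medians were 0.956 and 1.01 and those of all miRNAs 0.880 and 1.18, and 8 members were higher in both pools (24.2% of all miRNAs) and 10 lower in both (20.6%). In TMM-scaled CPM, both KO libraries lay above both WT libraries for 3 members (9.52% of all miRNAs), miR-466l-3p, miR-669n and miR-669p-3p, and below for 7 (11.6%).

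The member with the lowest unadjusted p was the miR-297 row, which joins the 3p arms of miR-297a, miR-297b and miR-297c and has 4 loci on chromosome 2 between 10509065 and 10517137. It had 67 UMIs in WT1, 50 in WT2, 30 in KO1 and 28 in KO2. Both KO counts were below both WT counts, although each KO library held more UMIs in all than the WT library of its pool number. Scaled on total UMIs, the row was at 42.5 CPM in WT1, 15.8 in WT2, 17.5 in KO1 and 7.71 in KO2. On that scale KO1 lay above WT2, so the genotypes overlapped. In TMM-scaled CPM it was at 26.3 ± 1.73 in WT and 11.5 ± 0.282 in KO (SD, n = 2 each). KO1 over WT1 was 0.466, with an exact 95% interval of 0.293 to 0.728, and KO2 over WT2 was 0.410, with 0.249 to 0.665. With edgeR's quasi-likelihood test its log2 fold change was -1.19 (SE 0.40), with an unadjusted p of 0.0127 and an adjusted p of 0.99995, so it did not pass, nor did it under the alternatives (adjusted p 0.898 to 0.99996). Its unadjusted p was 0.318 with scaling on total UMIs. It was the only member at least 2-fold lower in KO in both pools, as 0.501% of all miRNAs were, and 0 members were at least 2-fold higher in both (0.111%). Scaled on total UMIs the ratios were 0.413 and 0.489, and in reads 0.333 and 0.472.

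**Figure D5:**
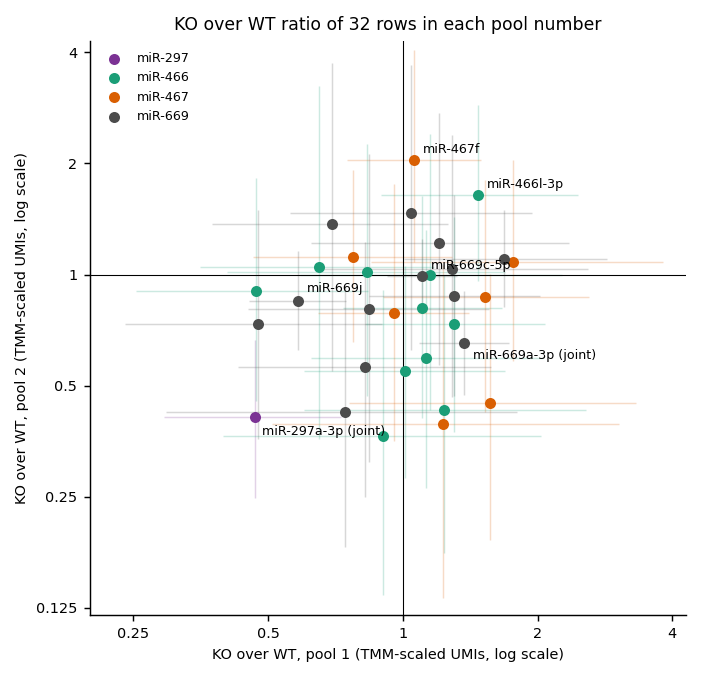
KO over WT ratio of TMM-scaled UMIs in pool 1 (x axis) and pool 2 (y axis) for the 32 members with counts above 0 in all libraries, on log scales, with exact 95% intervals and colours by miRNA number. The miR-297 row, labelled miR-297a-3p (joint), lies at 0.466 and 0.410, and most other members scatter around 1 with intervals that cross it.

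The members that followed by p among those lower in KO had fewer UMIs. For miR-669m-3p (33 UMIs in WT1, 18 in WT2, 15 in KO1 and 18 in KO2) KO1 over WT1 was 0.473 (0.239 to 0.896) and KO2 over WT2 was 0.733 (0.360 to 1.49). The same ratios of miR-466n-3p were 0.469 (0.253 to 0.837) and 0.905 (0.455 to 1.83). Those of miR-669b-3p were 0.744 and 0.424, at 10 to 19 UMIs, and those of miR-466i-5p 0.903 and 0.366, at 8 to 16 UMIs. The more abundant miR-669j had 0.583 (0.454 to 0.746) in pool 1 and 0.850 (0.625 to 1.16) in pool 2. Scaled on total UMIs the pool 2 ratio was 1.01 for miR-669j and 1.08 for miR-466n-3p, so their direction in pool 2 depended on the scaling.

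Among members with higher estimates in KO, miR-466l-3p had the lowest unadjusted p (0.145, edgeR; adjusted p 0.99995). It had 29 UMIs in WT1, 21 in WT2, 41 in KO1 and 47 in KO2, and both KO libraries were above both WT libraries. KO1 over WT1 was 1.47 (0.893 to 2.46) and KO2 over WT2 was 1.64 (0.961 to 2.89), with intervals that reached below 1. For miR-467e-5p the ratios were 1.76 (0.850 to 3.81) and 1.08, for miR-467b-3p 1.52 and 0.870, and for miR-669p-3p 1.21 and 1.22. In miR-467f the ratio was 1.06 in pool 1 and 2.04 (1.08 to 4.07) in pool 2, where WT had 14 UMIs and KO 39. Scaled on total UMIs, miR-467f was at 0.936 in pool 1 and miR-467b-3p at 1.04 in pool 2, on the other side of 1. Of the remaining abundant members, miR-467a-5p was lower in KO in both pools, at 0.953 and 0.785, with intervals that included 1. The ratios were on both sides of 1 for miR-466i-3p, at 1.11 and 0.814, and for miR-669i, at 1.30 and 0.872. With total UMIs as the scale, miR-466i-3p was below 1 in both pools (0.979 and 0.970) and miR-669i above 1 in both (1.15 and 1.04).

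The arms of miR-669a gave different ratios. The 3p row was higher in KO in pool 1, at 1.37 (1.09 to 1.73), and lower in pool 2, at 0.653 (0.471 to 0.905), with both intervals clear of 1 and a log2 fold change of 0.039 (SE 0.52). The 5p row had 1.68 (1.01 to 2.86) and 1.10 (0.817 to 1.50). By contrast miR-669c-5p, the most deeply counted member, had 1.10 (0.921 to 1.32) and 0.988 (0.785 to 1.25), a log2 fold change of 0.071 (SE 0.49). With total UMIs as the scale, miR-669c-5p was at 0.976 and 1.18, on the other side of 1 in both pools. Intervals clear of 1 were seen for 2 members above and 4 below in pool 1 (11.7% and 10.3% of all miRNAs) and for 1 above and 5 below in pool 2 (9.85% and 11.4%). Above 1 were both miR-669a rows in pool 1 and miR-467f in pool 2. Below 1 were the miR-297 row, miR-466n-3p, miR-669j and miR-669m-3p in pool 1, and the miR-297 row, miR-466h-5p, miR-466i-5p, miR-669a-3p/miR-669o-3p and miR-669b-3p in pool 2.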

How the data were processed

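UMI and read counts per mature miRNA were used as the authors deposited them, with no normalization. The log2 values that the authors deposited differ from log2 UMI counts by a constant: -0.0276 for WT1, 0.215 for WT2, 0.0296 for KO1 and -0.209 for KO2. RNA came from ExoQuick precipitates of plasma, and the library kit was QIAseq miRNA, per the labels' protocols. FastQC 0.11.9 and GRCm38/mm10 are listed, per the submitters' processing notes, and the sources used here give no aligner or counter. Positions are the deposited ones, and genes are those of GENCODE on the same build.

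The 1809 miRNAs listed for all libraries were fitted with edgeR 4.0.16 (R 4.3.3): default filter, TMM scaling (factors 1.70 for WT1, 0.574 for WT2, 1.50 for KO1 and 0.684 for KO2), quasi-likelihood F-test on genotype, two-sided, Benjamini-Hochberg adjusted p under 0.05 over all rows tested. The fit has 2 residual degrees of freedom and was tested on simulated counts. Shares were compared with an exact permutation test over libraries. KO over WT ratios within a pool number carry exact (Clopper-Pearson) 95% intervals.

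Members named were the 10 most abundant, the 5 with the lowest p in each direction, the most abundant 5p and 3p row per number, and those at least 2-fold apart in both pools. miR-669n was named after its values were seen, and further rows for their sequence, their arms or a listing at 0. A planned list of miRNAs with a like pattern is not given, since 4 libraries are too few for a correlation. Members and lists were chosen with earlier results of these data known. Alternatives were other scalings and filters, pool number as a block, read counts, DESeq2 1.42.0, each library left out and other denominators. Python 3.11.15, pandas 2.3.3 and SciPy 1.17.1 prepared the tables.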

Additional observations from a re-analysis of the deposited data

Results flagged for a closer look

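Rows of the family that were listed for 1 pool number only took no part in the comparison. By UMI count, 5 of 11 such rows were higher in KO in pool 1 and 2 of 3 in pool 2. The other 6 and 1 were lower, and 4 of the higher rows are given here. In pool 1, miR-466q had 24 UMIs in KO, miR-669f-3p had 14 and miR-669d-3p had 10, and all 3 were listed at 0 in WT, where the smallest count above 0 was 10. Since no count from 1 to 9 is listed in pool 1, a 0 there is not shown to be an absence, and no ratio is given for these 3. As many rows of pool 1 were listed at 0 in KO and had 11, 11 and 15 UMIs in WT. In pool 2, miR-669f-5p had 23 UMIs in KO and 3 in WT. Each rests on 1 library per genotype, so there is no replicate check.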

How the results depend on the processing

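No alternative called a member. The number of miRNAs called ranged from 0 to 3 with 1 library left out (2 without WT2, 3 without KO2), and was 0 under the other alternatives. The family's median log2 fold change ranged from -0.57 to 0.17 with 1 library left out, and its share difference from -0.0357 to 0.0271 percentage points. Of 197 log2 fold changes of the 18 named members, 178 kept their sign. Signs changed for miR-466i-3p with DESeq2-type size factors (0.011) and DESeq2 (0.016). With pool number as a block (replicate block) the sign changed for miR-669a-3p/miR-669o-3p (-0.037), 0 members were called, and the family's share difference was -0.00432 points. Same-numbered libraries deviated alike (correlation over 1797 miRNAs 0.527), and their feature lists, smallest counts and TMM factors also went by number. The labels do not say what a shared number stands for, and there are 2 pairs, so the block was kept as an alternative. With 1 library left out, log2 fold changes ranged from -0.81 to 0.54 for miR-466i-3p, -1.32 to 0.84 for miR-467a-5p, -0.26 to 0.67 for miR-467b-3p, -0.052 to 1.02 for miR-467e-5p, -0.27 to 1.51 for miR-467f, -0.66 to 0.51 for miR-669a-3p/miR-669o-3p, -0.61 to 1.67 for miR-669a-5p/miR-669p-5p, -0.17 to 0.29 for miR-669c-5p and -0.39 to 0.54 for miR-669i. The miR-297 row stayed between -1.23 and -1.12. With scaling on total UMIs, 5 miRNAs had an unadjusted p under 0.05 (edgeR) in place of 32, and with the block 78. The planned fit to the authors' log2 values was not run, because values of the 2 pool numbers appear to have been scaled separately. Most members had fewer than 50 UMIs per library, which limits the precision of their ratios.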

Other observations

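Beyond the 34 members, 14 rows of the family were listed for 1 pool number only. In pool 1 there were 11, with 136 UMIs in WT and 134 in KO in all, of which 5 were higher and 6 lower in KO by UMI count, and 3 were listed at 0 in each genotype. The rows at 0 in KO1 were miR-466d-5p, the joint 3p row of miR-466b, miR-466c and miR-466p, and miR-669h-3p, with 11, 11 and 15 UMIs in WT. The highest counts were those of miR-467d-5p, with 33 UMIs in WT and 25 in KO, and miR-297b-5p, with 26 and 12. In pool 2 there were 3 such rows, with 18 UMIs in WT and 40 in KO. No test was made, since each value rests on 1 library per genotype.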
